A study of Homo sapiens with 16 samples.

Results

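The genes described are p53 regulators and targets in Jurkat E6-1, a human T cell line in long-term culture: MDM2, MDM4, CDKN1A, GADD45A, TP53INP1, ZMAT3, RRM2B, FAS and AEN. They were taken by symbol, after the gene identifiers of the count tables had been matched to gene names, and are 9 of 60662 genes. All 9 passed the filter on low counts, as did 14092 genes in all. RNA-seq was done on 8 control libraries of untreated cells at 0 h and on 8 libraries of cells that had been placed in phosphate-buffered saline with 10 µM hydrogen peroxide for 4 h. Both groups are the same line, marked WT in all 16 titles, and the labels call the libraries biological replicates. Untreated cells kept in saline for 4 h were not analysed here, so peroxide, saline and time cannot be told apart. The names of the deposited tables place 4 libraries of each group in each of 2 batches. The question was whether the rise of CDKN1A was joined by other targets of p53.

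The transcription factor p53 is held at a low level by MDM2, a ubiquitin ligase that marks it for destruction, and by MDM4, which blocks its activity. After DNA damage or other stress these brakes are released, and p53 binds paired DNA elements near genes that stop the cell cycle, repair DNA, supply nucleotides or start apoptosis. MDM2 is itself a target, which closes a feedback loop. Jurkat cells are widely described as lacking functional p53, and many of its targets, CDKN1A and GADD45A among them, are also induced by stress through other transcription factors.

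Libraries held 5556553 to 15720881 reads in genes. Levels are given as CPM, the counts of a gene scaled to the size of its library. Reads without a unique alignment made up 34.1% ± 5.43 of counted reads in the controls and 38.3% ± 4.33 in the peroxide libraries (SD, n = 8). All 10 T cell markers were present, and their summed level was 3509 to 4440 CPM in controls and 3480 to 4185 CPM after peroxide. Of the 10, 4 were lower (40%, beside 24.3% of all genes) and none was higher. TAL1 fell by 0.69 on the log2 scale and lay below the controls in all 8 peroxide libraries. Of the 5 myeloid markers, CD14 and ITGAM passed the test as higher, and the summed level of the 5 was 0.125 to 1.10 CPM in controls and 4.35 to 14.2 CPM after peroxide. CD14 and ITGAM, with 22 and 15 reads over the controls, passed the filter on low counts only through the peroxide libraries. None of the 5 was at 0 in all libraries, although LYZ had only 3 reads over the controls and 8 over the peroxide libraries. These sums moved with the treatment in the same direction as CDKN1A and GADD45A, and their part in those results was not tested. Erythroid markers were at or near 0, with no read for HBB, and the B cell markers other than CD79A had at most 15 reads in a group. The libraries are bulk RNA, so a change in the make-up of the cells and a change in RNA per cell cannot be told apart.

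CDKN1A and GADD45A rose in the peroxide libraries, FAS was slightly lower, and the other 6 genes did not pass the test. Calls rest on edgeR's quasi-likelihood test with batch as a term, at an adjusted p under 0.05 by Benjamini-Hochberg over all 14092 genes. By this rule 2 of 9 genes were higher (22.2%) and 1 of 9 was lower (11.1%). Over all genes tested the shares were 24.1% higher and 24.3% lower, so the count of risers was close to the background and is not a result about the set. Calls in either direction made up 48.3% of all genes. The median log2 fold change of the 9 genes was 0.00, beside -0.01 over all genes. Both risers passed 2-fold, which 5.93% of all genes did upward, and in both every peroxide library lay above every control, which held for 6.76% of all genes. In none of the 9 did every peroxide library lie below every control, as 4.49% of all genes did.

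**Figure D1:**
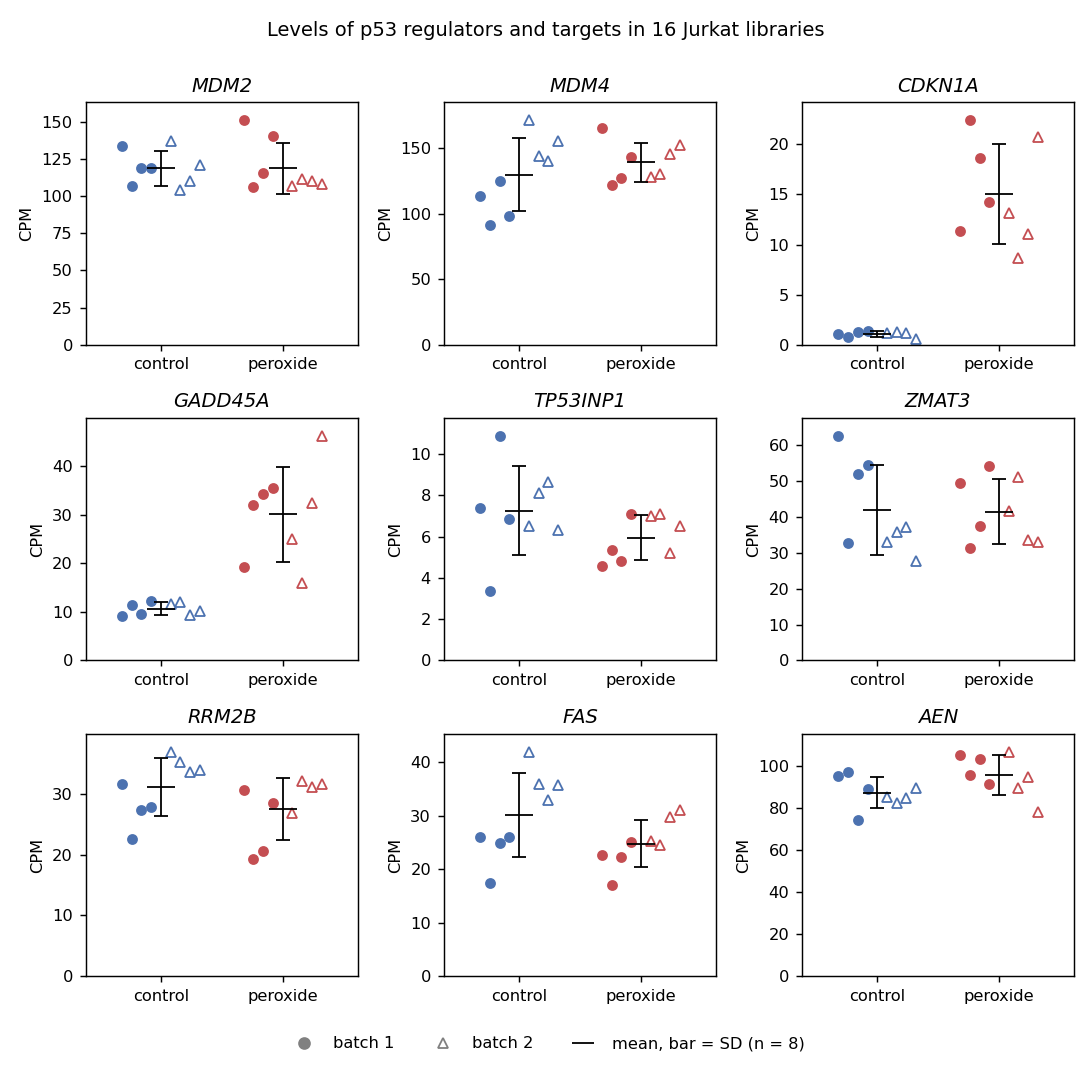
Level of each of the 9 genes in CPM (vertical axis, from 0) in the 8 control and 8 peroxide libraries, filled circles for batch 1 and open triangles for batch 2, with the mean and SD of each group. The groups are apart for CDKN1A and GADD45A and overlap for the other 7 genes.

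Promoter sequence is shown for MDM2, the feedback target, and CDKN1A, the gene that rose most, because the comparison of these genes turns on their response. RefSeq promoter windows of build GRCh38.p14, from 250 bases before to 50 after an annotated start, were searched for 6 of the 9 genes in 12 windows; GADD45A, TP53INP1 and RRM2B were not searched. The p53 element was read as 2 blocks of 10 letters with the central C and G of each block required, at most 2 mismatches elsewhere and at most 1 letter between the blocks. It reads alike on both strands, and 187 of 35116 windows of this length (0.533%) held it. The 2 stretches below lie on the plus strand outside annotated exons of protein-coding genes. Capitals mark only the letters that met the rule above, so an element that departs from it stays in lower case. The MDM2 stretch, from the internal promoter, is at chr12:68808767-68809001. The CDKN1A stretch is at chr6:36678464-36678657, where no element was found by this rule.
MDM2: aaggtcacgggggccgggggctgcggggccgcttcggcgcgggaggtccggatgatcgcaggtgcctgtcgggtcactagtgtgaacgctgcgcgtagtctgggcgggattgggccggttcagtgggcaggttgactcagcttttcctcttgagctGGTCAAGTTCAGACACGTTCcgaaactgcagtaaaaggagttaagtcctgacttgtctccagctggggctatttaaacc
CDKN1A: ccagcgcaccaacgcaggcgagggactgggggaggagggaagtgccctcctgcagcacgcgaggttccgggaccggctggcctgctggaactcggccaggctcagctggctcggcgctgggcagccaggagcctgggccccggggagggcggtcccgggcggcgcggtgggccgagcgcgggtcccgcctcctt

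The elements found in these windows are shown to compare them, with capitals for the central C and G of each block. They lie at chr12:68808923-68808942 for MDM2, chr10:88991309-88991328 for FAS and chr15:88621306-88621325 for AEN, all on the plus strand, and each has 2 mismatches.
MDM2: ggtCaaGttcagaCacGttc
FAS: ggaCaaGccctgaCaaGcca
AEN: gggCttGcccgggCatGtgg

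Of the 3 genes whose windows held an element, MDM2 and AEN did not pass the test and FAS was lower. No such letters lie in the windows of CDKN1A, MDM4 or ZMAT3, which says only that they are not in these 300 bases: the elements that p53 is known to bind at CDKN1A lie farther upstream. The AP-1 letters TGANTCA, on either strand, were in the MDM2 stretch, apart from its p53 element, and in a FAS window, and 7.71% of all windows hold them. The ATF4 letters TGATGNAA, on either strand, were in none of the 12 windows and are in 3.62% of all. The AP-1 and ATF4 words share their first letters but were not found on the same bases here. A match is a description of letters and not a site.

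The inhibitors of p53 come first. MDM2 was at 104, 119 and 137 CPM in the lowest, median and highest control and at 106, 111 and 151 CPM in the peroxide libraries. The groups overlapped, and 2 of 8 peroxide libraries, both of batch 1, lay above the highest control. The log2 fold change was -0.00 ± 0.08 (SE; 95% interval -0.16 to 0.16; adjusted p = 0.978). That interval leaves out a change of 2-fold in either direction. The response was 0.10 ± 0.11 in batch 1 and -0.11 ± 0.08 in batch 2, neither past the threshold (adjusted p = 0.518 and 0.327).

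MDM4 was at 91.2, 132.5 and 171 CPM in controls and at 122, 137 and 165 CPM after peroxide, so the peroxide range lay inside the control range. The log2 fold change was 0.12 ± 0.09 (95% interval -0.08 to 0.31; adjusted p = 0.309). Controls of MDM4 were split by batch, at 91.2 to 125 CPM in the first and 140.3 to 171 CPM in the second, whereas the peroxide libraries were at 122 to 165 CPM and 128 to 153 CPM. In batch 1 alone MDM4 was higher after peroxide by 0.38 ± 0.12 on the log2 scale (adjusted p = 0.0191), and in batch 2 alone the value was -0.13 ± 0.08 (adjusted p = 0.222). The difference between the batches, -0.51, missed the threshold (adjusted p = 0.0525). With DESeq2 in place of edgeR, MDM4 passed it.

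Of the genes of cell cycle arrest, CDKN1A encodes p21, an inhibitor of cyclin-dependent kinases. The controls had 13, 4, 14 and 11 reads of it in batch 1 and 9, 21, 15 and 5 in batch 2, against 94, 155, 140 and 134 and then 113, 80, 106 and 172 in the peroxide libraries. In CPM the lowest, median and highest controls were at 0.572, 1.15 and 1.35, and the peroxide libraries at 8.70, 13.7 and 22.4. Every peroxide library lay above every control, by more than the whole spread of the controls. In CPM as given here, only 4 of 8 controls reached 1.14, the level of the filter on low counts. The filter itself was run before TMM scaling, where that count can differ. It required 8 libraries at that level, and CDKN1A passed it through the peroxide libraries. The log2 fold change was 3.73 ± 0.21 (95% interval 3.28 to 4.17; adjusted p = 8.50e-12), a 13.2-fold rise (higher in 8 of 8 libraries). It was 3.83 ± 0.27 in batch 1 and 3.63 ± 0.30 in batch 2, and the difference between the batches did not pass the test (adjusted p = 0.849).

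GADD45A, a stress protein that binds the replication clamp and kinases of the stress and cell cycle pathways, was at 9.14, 10.8 and 12.2 CPM in controls and at 15.9, 32.3 and 46.3 CPM after peroxide. The peroxide libraries varied more among themselves, from 15.9 to 46.3 CPM, but the lowest still exceeded the highest control. The log2 fold change was 1.50 ± 0.17 (95% interval 1.14 to 1.85; adjusted p = 2.64e-07), a 2.82-fold rise, with 1.53 in batch 1 and 1.46 in batch 2. The lowest peroxide level of GADD45A and that of CDKN1A came from the same library, peroxide 6. After group and batch means were removed, log2 levels of the 2 genes had a Pearson r of 0.63 over 16 libraries, a description of libraries that also share depth and handling.

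Of the genes of cell death, FAS is the death receptor through which T cells are killed by FAS ligand. It was at 17.4, 29.5 and 41.9 CPM in controls and at 17.1, 24.9 and 31.1 CPM after peroxide, with overlap. The log2 fold change was -0.27 ± 0.10 (95% interval -0.47 to -0.07; adjusted p = 0.0257). In batch 2 the 4 controls were at 33.0 to 41.9 CPM and the 4 peroxide libraries at 24.6 to 31.1 CPM, with no overlap, and the log2 fold change was -0.40 ± 0.10 (adjusted p = 0.00794). In batch 1 the ranges were 17.4 to 26.1 CPM and 17.1 to 25.1 CPM, and the value was -0.13 (adjusted p = 0.523). The call of FAS was lost with no batch term (adjusted p = 0.154), and without control 5 (0.0552), peroxide 5 (0.0562) or peroxide 6 (0.0584). It was also lost without control 1 and peroxide 5 together, which had the highest shares of reads without a unique alignment (adjusted p = 0.0870). ACTA2, a gene on the other strand that overlaps FAS, had 191 reads over the controls and 153 over the peroxide libraries, and whether counting used strand is not known here.

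AEN, a nuclease that degrades DNA in dying cells, was at 74.1 to 97.2 CPM in controls (87.1 ± 7.36, SD, n = 8) and at 78.1 to 107 CPM after peroxide (95.5 ± 9.56). The ranges overlapped, with 3 of 8 peroxide libraries above the highest control. The log2 fold change was 0.13 ± 0.07 (95% interval -0.01 to 0.27; adjusted p = 0.104). TP53INP1, a nuclear and autophagy protein that promotes p53 activity, was at 3.38, 7.12 and 10.9 CPM in controls and at 4.57, 5.93 and 7.11 CPM after peroxide. The peroxide range lay inside the control range, and the log2 fold change was -0.32 ± 0.16 (95% interval -0.66 to 0.02; adjusted p = 0.115). NDUFAF6 overlaps TP53INP1 on the other strand and had 2208 and 1957 reads over the 2 groups, so the level of TP53INP1 is uncertain.

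ZMAT3, a zinc finger protein that binds RNA and acts in splicing, was at 27.7, 36.5 and 62.5 CPM in controls and at 31.2, 39.5 and 54.1 CPM after peroxide. The groups overlapped, and the log2 fold change was 0.00 ± 0.14 (95% interval -0.28 to 0.29; adjusted p = 0.985). The value was -0.24 in batch 1 and 0.25 in batch 2, and that difference did not pass the test (adjusted p = 0.288). RRM2B, the p53-inducible small subunit of ribonucleotide reductase, which makes nucleotides for DNA repair, was at 22.5, 32.6 and 36.9 CPM in controls and at 19.2, 29.5 and 32.1 CPM after peroxide. Its log2 fold change was -0.17 ± 0.09 (95% interval -0.36 to 0.01; adjusted p = 0.119), and the groups overlapped.

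**Figure D2:**
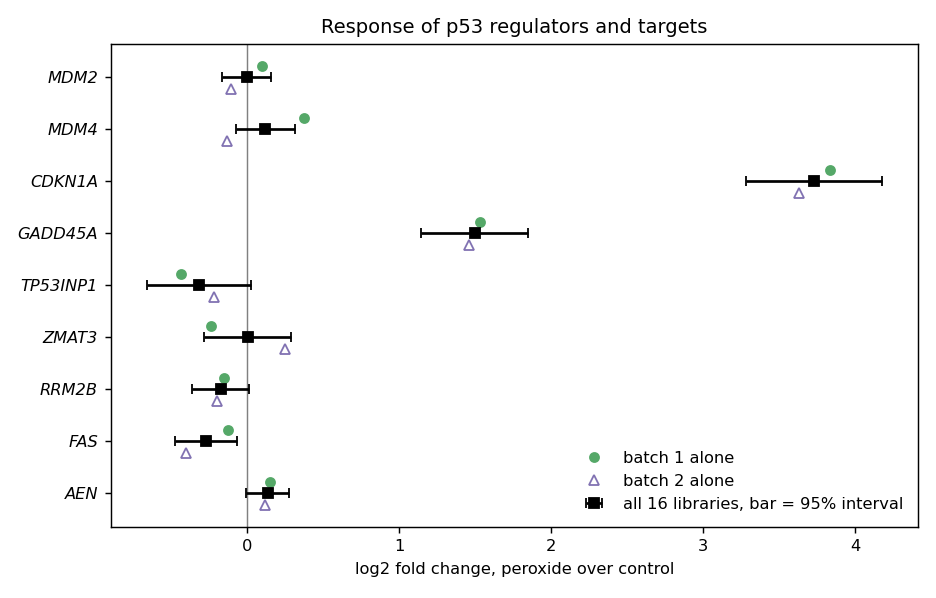
Log2 fold change of peroxide over control (horizontal axis) for the 9 genes, as squares with 95% intervals over all 16 libraries, and in batch 1 (circles) and batch 2 (triangles) alone. CDKN1A at 3.73 and GADD45A at 1.50 stand to the right of 0 in both batches, and 6 intervals include 0.

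None of the 9 genes passed the test of a different response in the 2 batches (4.88% of all genes did). At an unadjusted p under 0.05 the count was 1 of 9, MDM4, beside 3001 of all 14092 genes tested. That count is not a result about the set. DESeq2 also called MDM4. Levels of 4 of the 9 genes differed between the batches. In a test of batch 2 against batch 1 that was added after the data had been seen, 3 of 9 genes were higher in batch 2: FAS by 0.48 on the log2 scale (adjusted p = 3.25e-04), RRM2B by 0.32 (adjusted p = 0.00630) and MDM4 by 0.25 (adjusted p = 0.0285). ZMAT3 was the 1 gene lower in batch 2, at -0.36 (adjusted p = 0.0333). Over all genes 25.3% were higher and 25.9% lower in batch 2. MDM2, CDKN1A, GADD45A, TP53INP1 and AEN did not pass it.

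The genes most like CDKN1A and MDM2 in pattern were taken by the Pearson r of log2 CPM over the 16 libraries, among 11079 genes with a mean of at least 5 CPM. For CDKN1A they were CSKMT (r = 0.991), ARC (0.991), KLF4 (0.989) and SNAI1 (0.989). These coefficients mostly follow the gap between the groups, and with group and batch means removed they were 0.82, 0.85, 0.77 and 0.84. All 4 were higher after peroxide, by 1.79, 5.36, 4.27 and 5.33 on the log2 scale in that order. That direction follows from the way they were picked. Control means of ARC, KLF4 and SNAI1 were only 0.76, 0.64 and 0.81 CPM. They reached the mean of 5 CPM only through the peroxide libraries. For MDM2 the genes most alike were ZNF714 (r = 0.923), KIF11 (0.917), PHIP (0.915), BLOC1S6 (0.905) and PKN2 (0.899), with log2 fold changes from -0.10 to 0.02. With group and batch means removed, the r of MDM2 was 0.82 with RRM2B, 0.76 with MDM4, 0.71 with FAS and -0.32 with CDKN1A.

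The wider set of p53 targets held 83 listed genes, of which 81 were matched by symbol and 60 were tested. Of these, 25 were higher (41.7%, beside 24.1% of all genes) and 13 lower (21.7%, beside 24.3%). The median of the 60 log2 fold changes was 0.15, beside -0.01 over all genes. Of the 60, 8 rose by at least 2-fold and 1 fell by as much. Over all 14092 genes 836 rose so far (5.93%) and 129 fell (0.915%), so rises outnumbered falls there too. The lists were drawn up with earlier results of these data known, so these counts are a description. Genes named from them are those with the smallest p in each list, unless stated.

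Among other genes of cell cycle arrest, 4 of 5 tested were higher (80%, beside 24.1% of all genes), with a median of 0.41. None was lower, beside 24.3% of all genes. PLK3, a stress-response kinase, was at 9.63 to 13.7 CPM in controls and 25.02 to 43.1 CPM after peroxide, with no overlap, and rose by 1.35 ± 0.12 on the log2 scale (adjusted p = 5.48e-09). BTG2, an antiproliferative regulator of RNA decay, had a median of 15.7 CPM in controls and 30.9 CPM after peroxide, and rose by 0.98 ± 0.13. PPM1D, a phosphatase that switches off the p53 response, rose by 0.41, and CCNG1, a cyclin that p53 induces, by 0.29. GDF15, a secreted stress hormone that is among the targets most strongly induced by p53, had 3 reads over all controls and 8 over all peroxide libraries and was not tested. The call of PPM1D was lost in batch 2 alone (0.22, adjusted p = 0.0636), and that of CCNG1 with total counts (0.22, adjusted p = 0.0549) and in batch 1 alone (adjusted p = 0.144).

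Of the other cell death targets, 6 of 13 tested were higher (46.2%, beside 24.1% of all genes) and 2 lower (15.4%, beside 24.3%). Their median was 0.07. The 2 largest rises were in BH3-only genes, which trigger apoptosis at mitochondria. BBC3, which encodes PUMA, was at 4.32 to 18.0 CPM in controls and 29.2 to 60.2 CPM after peroxide, with no overlap, and rose by 2.09 ± 0.21 on the log2 scale (adjusted p = 3.47e-08), by 2.93 in batch 1 and 1.49 in batch 2. PMAIP1, which encodes NOXA, was at 43.5 to 100.2 CPM in controls and 217 to 306 CPM after peroxide, with no overlap, and rose by 1.93 ± 0.12 (adjusted p = 3.97e-11), by 2.33 in batch 1 and 1.55 in batch 2. Controls of both genes were higher in batch 2 than in batch 1, at 11.9 to 18.0 against 4.32 to 6.1 CPM for BBC3 and 75.8 to 100.2 against 43.5 to 59.7 CPM for PMAIP1. TNFRSF10B, the TRAIL receptor DR5, rose by 0.40 ± 0.07, from a median of 69.4 to 94.9 CPM. APAF1, the core of the apoptosome, fell by 0.71 on the log2 scale, from a median of 49.3 to 28.1 CPM. TNFRSF10A, another TRAIL receptor named after its value was seen, was the other gene that fell. Its level was low, with a mean of 2.09 CPM in controls and 1.33 CPM after peroxide. In batch 1 alone TNFRSF10A did not pass the filter on low counts, and in batch 2 alone its value was -0.72 (adjusted p = 0.0213). TP53AIP1, a mitochondrial protein induced by p53 and also named after its values were seen, did not pass the filter on low counts: it had 3 reads over all controls and 96 over all peroxide libraries, with all 8 peroxide libraries above the highest control. BAX, an effector of mitochondrial death, was also named after its value was seen. It was at 34.0 to 50.4 CPM in controls and 39.7 to 52.0 CPM after peroxide. Its log2 fold change was 0.07 ± 0.08 (adjusted p = 0.460). The value was -0.10 in batch 1 alone (adjusted p = 0.4585) and 0.24 in batch 2 alone (adjusted p = 0.0411). The difference between the batches did not pass the test (adjusted p = 0.134).

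**Figure D3:**
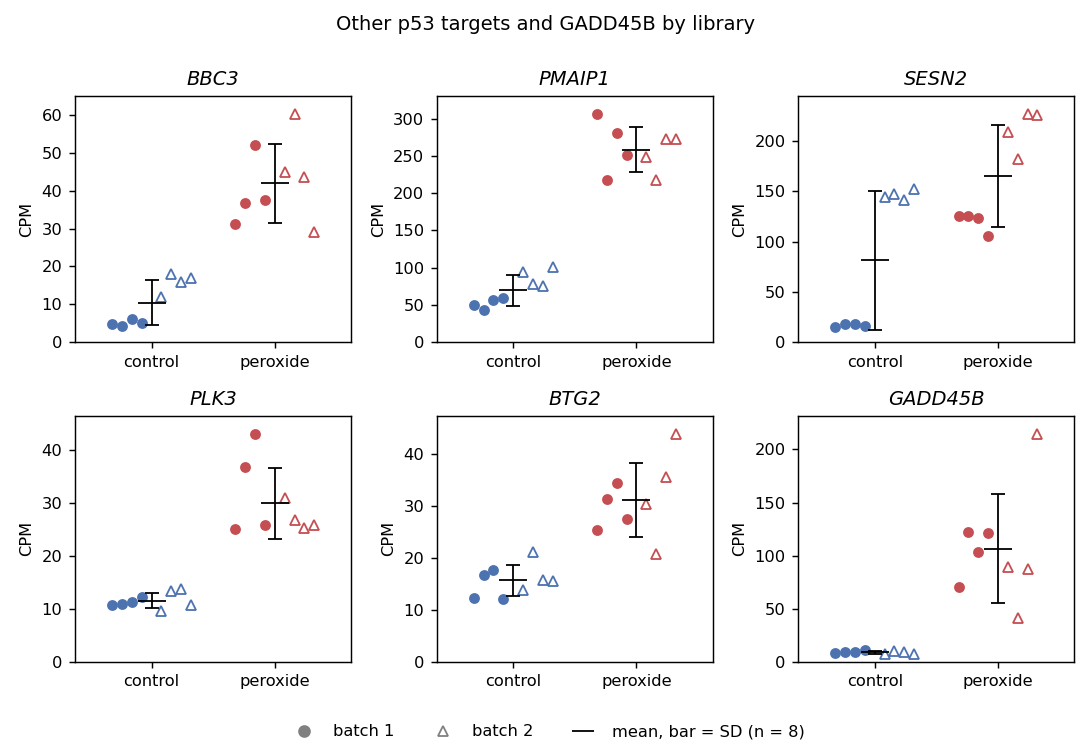
Level in CPM (vertical axis, from 0) of BBC3, PMAIP1, SESN2, PLK3, BTG2 and GADD45B in the 8 control and 8 peroxide libraries, filled circles for batch 1 and open triangles for batch 2, with the mean and SD of each group. SESN2 controls split by batch into 15.0 to 18.2 and 141 to 152 CPM, and the groups are apart for BBC3, PMAIP1, PLK3 and GADD45B.

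In metabolism, redox control and autophagy 5 of 13 tested genes were higher (38.5%, beside 24.1% of all genes) and 2 lower (15.4%, beside 24.3%). Their median was 0.13. SESN2, a stress protein that restrains mTORC1, stood at 15.0 to 18.2 CPM in the batch 1 controls and at 141 to 152 CPM in the batch 2 controls. Its peroxide libraries of batch 1 were at 105 to 125 CPM and those of batch 2 at 182 to 226 CPM, so each batch moved upward without overlap while the 2 groups as wholes overlapped. Its log2 fold change was 1.55 ± 0.27 (adjusted p = 5.59e-05) with the batch as a term, 2.85 in batch 1 and 0.53 in batch 2. With no batch term the call of SESN2 was lost, at 1.01 (adjusted p = 0.116). ACER2, an alkaline ceramidase, rose by 0.82 ± 0.12 and ULK1, a kinase that starts autophagy, by 0.39 ± 0.06, whereas FUCA1, a lysosomal fucosidase, fell by 0.38 and lay below the controls in all 8 libraries. TIGAR and SESN1, both named after their values were seen, were higher by 0.47 and 0.35.

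In DNA repair and nucleotide supply 2 of 7 genes were higher and 2 lower, with a median of -0.09. Each share, 28.6%, was near those of all genes, 24.1% higher and 24.3% lower. PCNA, the replication clamp, was at 264 to 423 CPM in controls and 418 to 610 CPM after peroxide, and rose by 0.60 ± 0.05 on the log2 scale (adjusted p = 1.07e-08). DDB2, which finds ultraviolet damage, rose by 0.29, and XPC, its partner in nucleotide excision repair, fell by 0.18. FANCC, of the Fanconi anaemia complex, fell by 0.31. The call of DDB2 was lost in batch 2 alone (adjusted p = 0.173). The calls of XPC and FANCC were lost with no batch term (adjusted p = 0.0765 and 0.0593) and in batch 1 alone (adjusted p = 0.286 and 0.0853).

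Of the remaining coding targets 6 of 19 were higher and 6 lower, with a median of 0.04. Each share was 31.6%, beside 24.1% higher and 24.3% lower over all genes. IER5, an immediate-early gene that acts on heat shock factor, was at 24.3 to 35.6 CPM in controls and 80.0 to 192 CPM after peroxide, and rose by 2.02 ± 0.14. RNF19B, a ubiquitin ligase, rose by 0.89 ± 0.09, and ZNF79, a zinc finger gene, fell by 0.78. Of 3 tested noncoding RNAs, LINC-PINT rose by 1.33 ± 0.21, PVT1 rose by 0.45 and TP53TG1 fell by 0.36. The call of PVT1 was lost in batch 2 alone, without control 3, and without control 1 and peroxide 5 together, and that of TP53TG1 in 9 of 27 alternatives.

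Among 10 tested relatives of GADD45A, TP53INP1, CDKN1A, RRM2B and FAS, 5 were higher (50%, beside 24.1% of all genes) and 1 lower (10%, beside 24.3%). Their median was 0.26. GADD45B, a stress protein related to GADD45A, was at 6.98 to 10.6 CPM in controls and 41.2 to 215 CPM after peroxide, with no overlap, and rose by 3.57 ± 0.24 on the log2 scale (adjusted p = 1.33e-10). GADD45G had 8 reads over all controls and 363 over all peroxide libraries, and its fitted log2 value of 5.66 ± 0.59 rests on those 8 reads. GADD45G passed the filter through the peroxide libraries. TP53INP2, an autophagy protein, rose by 1.17 ± 0.12 and did not overlap, where its paralog TP53INP1 was not called. CDKN1C, a kinase inhibitor of the p21 family, rose by 1.20 ± 0.20. CDKN1B, the third of that family and named after its value was seen, had a log2 fold change of -0.07 ± 0.09 (adjusted p = 0.525). The value was 0.11 in batch 1 alone (adjusted p = 0.537) and -0.25 in batch 2 alone (adjusted p = 0.00511). The difference between the batches did not pass the test (adjusted p = 0.176).

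Among regulators and relatives of p53, 9 of 21 tested genes were higher (42.9%, beside 24.1% of all genes) and 3 lower (14.3%, beside 24.3%). Their median was 0.11. SIRT1, a deacetylase that acts on p53, was at 42.8 to 76.4 CPM in controls and 128 to 203 CPM after peroxide, with no overlap, and rose by 1.46 ± 0.11 (adjusted p = 5.31e-10), by 1.81 in batch 1 and 1.12 in batch 2. TRIM28, a corepressor that works with MDM2, was at 404 to 584 CPM in controls and 744 to 1057 CPM after peroxide, and rose by 0.89 ± 0.06. PPP1R13B, a cofactor of p53 also known as ASPP1, rose by 0.52. RPL11, a ribosomal protein that binds MDM2, rose by 0.46, but its reads can be shared with near-identical copies and its level is uncertain.

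Genes that p21 is known to shut down through the DREAM complex were split between the directions. All 30 listed cell cycle genes were tested, and 5 were higher (16.7%), 6 lower (20%) and 19 not called. Over all genes the shares were 24.1% higher and 24.3% lower, so neither count is a result about the list. The median of the 30 log2 fold changes was -0.01, as over all genes, and none changed 2-fold. The 4 genes with the smallest p all fell. CENPF, a kinetochore protein, fell by 0.51 on the log2 scale (adjusted p = 6.12e-06), MKI67, the proliferation marker Ki-67, by 0.37, FOXM1, a factor of mitotic gene expression, by 0.34, and CCNA2, cyclin A2, by 0.33. The ranges of all 4 overlapped between the groups. MKI67 lost its call in batch 1 alone (adjusted p = 0.0518) and FOXM1 in batch 2 alone (adjusted p = 0.160). The 5 genes called higher, named after their values were seen, were PLK4, CDK1, CCNE2, TYMS and CHEK1. They rose by 0.16 to 0.33 on the log2 scale. The batch term was called for 20 of the 30 genes, beside 51.2% of all genes. Of the 30, 18 were lower and 2 higher in batch 2, beside 25.9% and 25.3% of all genes.

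**Figure D4:**
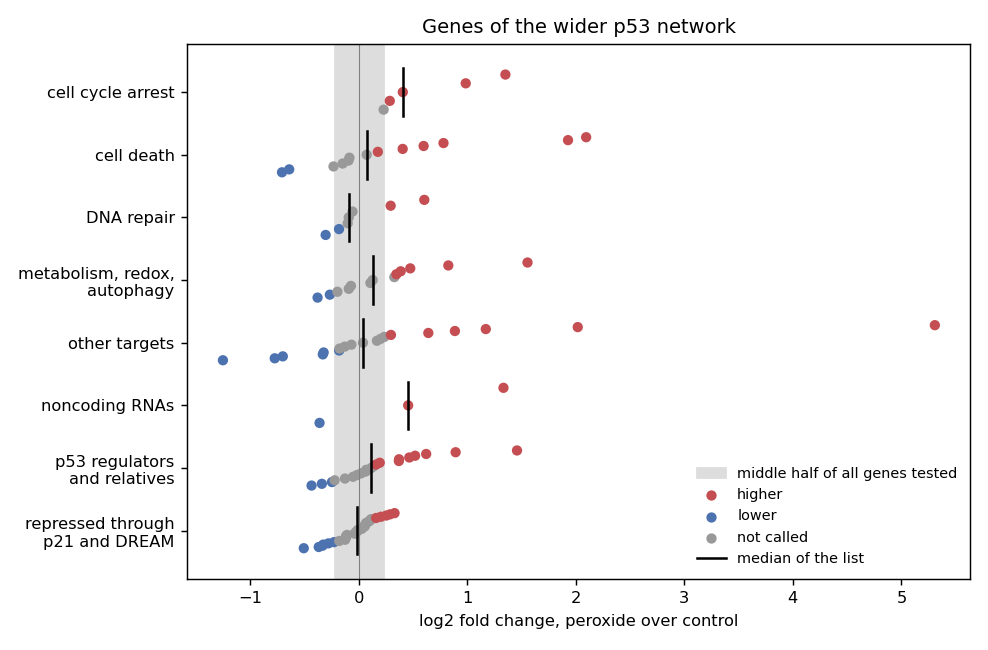
Log2 fold change of peroxide over control (horizontal axis) for each tested gene of 8 lists, coloured by call, with the median of each list as a black line and the interquartile range of all genes tested as a grey band. Genes of every list fall on both sides of 0 except cell cycle arrest, and the list repressed through p21 and DREAM is centred at -0.01.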

How the data were processed

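RNA-seq of Jurkat E6-1 cells was analysed in 16 libraries, 8 control and 8 peroxide. Each library has 1 deposited table of raw read counts by gene, which the authors made with STAR 2.7.1a and HTSeq 0.6.1 on build hg19, per the submitters' processing notes. The sources used here give neither the roles of these tools nor the strand setting. Rows that name no gene, 5 in each table, held 43.5% to 57.6% of counted reads and were kept out. Symbols were found for 60357 of 60662 identifiers. The batch was read from the names of the deposited tables, whose meaning the sources used here do not state.

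Genes were kept by filterByExpr in edgeR 4.0.16 (R 4.3.3), run on the groups, which left 14092 genes with 99.6% of the reads in genes. The quasi-likelihood F test was run on the counts with TMM scaling and batch as a term, with Benjamini-Hochberg adjustment over all genes tested. CPM are counts scaled to the TMM library size. The SE is the size of the log2 coefficient divided by the square root of F, and 95% intervals use the t distribution. The interaction of batch and group tested for different responses. The tests were checked on simulated data. No libraries agreed within sampling noise: the chi-square per degree of freedom was 2.96 to 18.2 within a batch and 16.1 to 46.6 across batches. If replicates came from 1 culture, p-values measure only the spread between these samples.

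The members and lists were chosen with earlier results of these data known. Named genes are the 9 members, up to 4 tested genes of each list by smallest p (mean of at least 1 CPM), and the 5 genes most like CDKN1A and MDM2; a few genes that this rule took are left out of the text and are not reported here. Alternatives were DESeq2 1.42.0, limma-voom (limma 3.58.1), other scalings and filters, no batch term, each batch alone, a replicate block, and leaving out libraries. Gene overlaps came from GENCODE, and promoter sequences from RefSeq, build GRCh38.p14, with 6 of 9 members searched.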

Additional observations from a re-analysis of the deposited data

Results flagged for a closer look

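In the test of the interaction of batch and group, 5 of the named genes responded differently in the 2 batches. Over all genes tested 4.88% passed this test, and the genes named from the lists had been taken by the smallest p between the groups. SESN2 responded less in batch 2 than in batch 1, with a log2 difference of -2.32 (adjusted p = 2.67e-10, edgeR), and its response was upward in both, at 2.85 ± 0.10 and 0.53 ± 0.08. For BBC3 the difference was -1.44 (adjusted p = 0.00728), between 2.93 ± 0.17 in batch 1 and 1.49 ± 0.18 in batch 2. PMAIP1 differed by -0.78 (adjusted p = 0.0101), SIRT1 by -0.70 (adjusted p = 0.0120) and RNF19B by -0.53 (adjusted p = 0.0160). All 5 rose in both batches and less in batch 2. For all 5 every control of batch 2 lay above every control of batch 1, as with SIRT1 at 63.9 to 76.4 against 42.8 to 58.1 CPM and RNF19B at 32.0 to 35.3 against 24.4 to 27.0 CPM, and the part of those control levels in the smaller response was not tested. Of the 60 other p53 targets tested, 7 passed the interaction test, all with a difference below 0. Of the list repressed through p21 and DREAM, 4 genes passed it, all with a difference above 0. These were PLK1 (0.51), BIRC5 (0.44), CDC20 (0.42) and MCM2 (0.38), named after their values were seen. The split by direction over all genes that passed is not given here, so these directions are not a result about the lists. By the gap to its nearest neighbour, no library stood apart from its group in any of the 18 groups of 8 looked at for the 9 members.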

How the results depend on the processing

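Counts of members and of other p53 targets that rose kept within 1.5 times under every alternative run. CDKN1A was called in 27 of 27 alternatives (3.59 to 3.83 on the log2 scale) and GADD45A in 27 of 27 (1.36 to 1.60); MDM2 and ZMAT3 were called in none. The count of members lower was 1 (FAS). It was 2 with total counts, 3 with no filter on low counts, 0 with no batch term, 0 in batch 1 alone and 0 without control 1 and peroxide 5, and 0 to 2 with 1 library left out (0 without control 5, peroxide 5 or peroxide 6; 2 without control 2 or peroxide 1). Other p53 targets lower fell from 13 to 6 with no batch term. The count of members whose response differed between the batches was 0. It was 1 with DESeq2 (MDM4), 2 with no filter (MDM4 and ZMAT3) and 0 to 1 with 1 library left out (MDM4 without control 3, peroxide 2 or peroxide 8). AEN passed the test without peroxide 8, TP53INP1 with no filter and without control 2, and RRM2B with total counts, with no filter and without peroxide 1. For these shifts the cause was not tested. Control counts of CDKN1A, 4 to 21 reads a library, limit the precision of its fold change.

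The numbers of the libraries run through both groups and are nested in batches. Same-numbered libraries had correlations of 0.206 to 0.553 after group means were removed, and after group and batch means were removed of -0.155 to 0.171, with 2 of 8 over 0.1, and 2 of 8 controls correlated best with their own number. The numbers were therefore not taken as pairs. With the number as a replicate block, 2 members were higher and 1 lower, and 25 other p53 targets were higher and 13 lower, the counts found with no block.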
